A study of Homo sapiens with 6 samples.

Results

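The miRNAs of the miR-199 and miR-214 group and of the miR-143 and miR-145 group were followed in breast cancer stem-like cells (BCSCs) treated with rosmarinic acid (RA), a plant phenolic acid. The members were taken by name, as every listed mature miRNA of miR-199a, miR-199b, miR-214, miR-143 or miR-145, and they came to 10 of the 449 mature miRNAs in the deposited values. They were 6 of miR-199 and miR-214 and 4 of miR-143 and miR-145, and both arms of each hairpin name were listed. The RA group held 3 libraries of cells given 200 μg/mL RA from Sarcandra glabra for 48 h. The Control group held 3 libraries of cells given 0 μg/mL for 48 h. The paper names dimethyl sulfoxide as the solvent at its final concentrations of RA, 0 μg/mL included. All 6 libraries came from BCSCs derived from MDA-MB-231, an established human triple-negative breast cancer line, with the genotype given as WT. Suspension culture that forms spheres was used to enrich BCSCs, and whether the sequenced cells were spheres is not stated. The single parent line limits these cells as a model. The paper describes RA in medium with serum for its wound-healing assay, and it does not give the medium of the sequenced cells. The labels do not say which culture well gave which library, so the p-values speak only for the spread among these samples, which may be technical. Their extraction notes describe brain tissue, while the methods describe cultured cells.

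MicroRNAs are cut from hairpin precursors. One arm, the 5p or the 3p strand, usually enters the silencing complex and pairs with target mRNAs through its seed (bases 2 to 8), while the other arm is mostly degraded. miR-199a-2 and miR-214 are processed from DNM3OS, a non-coding RNA of mesenchymal tissue that is switched on by the transcription factor TWIST1 in the embryo. miR-143 and miR-145 are processed together from CARMN, a non-coding RNA of smooth muscle and other mesenchymal cells. In many carcinomas miR-143 and miR-145 are low, and miR-145-5p is known to repress the pluripotency factors OCT4, SOX2 and KLF4.

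Mature sequences were found in RefSeq (GRCh38.p14) for 9 of the 10 members. They are shown to set the arms of one hairpin and the members of each group side by side, 5′ to 3′, with the seed in capitals.
hsa-miR-199a-3p: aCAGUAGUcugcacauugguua
hsa-miR-199b-3p: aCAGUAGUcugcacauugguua
hsa-miR-199a-5p: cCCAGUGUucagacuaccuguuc
hsa-miR-214-3p: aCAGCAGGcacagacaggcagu
hsa-miR-214-5p: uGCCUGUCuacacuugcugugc
hsa-miR-143-3p: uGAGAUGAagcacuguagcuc
hsa-miR-143-5p: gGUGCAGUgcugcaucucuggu
hsa-miR-145-5p: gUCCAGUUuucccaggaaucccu
hsa-miR-145-3p: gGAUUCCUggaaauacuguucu
The 9 entries made 8 distinct sequences with 8 distinct seeds, because miR-199a-3p and miR-199b-3p are the same molecule. miR-199b-5p was the member without an entry. Apart from that pair, no members with an entry shared a seed. The seed of miR-199b-5p was not compared, but the MIR199B hairpin holds the bases CCAGUGU, the seed of miR-199a-5p. Among the other listed miRNAs with a sequence, only miR-6088, at a mean of 2.54 CPM, carried the seed of a member, that of miR-143-3p. Levels are given in CPM, the reads of a miRNA scaled to the effective library size used by the authors.

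The hairpins of the DNM3OS locus and of the CARMN locus are shown with both mature arms in capitals, since the arms of one hairpin did not always move alike.
MIR199A2: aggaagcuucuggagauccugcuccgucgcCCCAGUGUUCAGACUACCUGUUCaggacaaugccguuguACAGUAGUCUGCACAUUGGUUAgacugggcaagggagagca
MIR214: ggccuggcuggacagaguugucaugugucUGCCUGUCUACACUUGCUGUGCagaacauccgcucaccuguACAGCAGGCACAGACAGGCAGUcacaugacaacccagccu
MIR143: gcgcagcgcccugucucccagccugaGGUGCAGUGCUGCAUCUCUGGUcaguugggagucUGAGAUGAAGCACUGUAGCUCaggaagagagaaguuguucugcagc
MIR145: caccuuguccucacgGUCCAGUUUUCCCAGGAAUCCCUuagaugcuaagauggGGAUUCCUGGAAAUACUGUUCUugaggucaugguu
In GRCh38, MIR199A2 lies at chr1:172144535-172144644 and MIR214 at chr1:172138798-172138907, both on the minus strand, with 5627 bp between them. GENCODE v29 places both in an exon of DNM3OS, which runs antisense within an intron of the protein-coding gene DNM3. MIR143 lies at chr5:149428918-149429023 and MIR145 at chr5:149430646-149430733, both on the plus strand, with 1622 bp between them. They overlap CARMN on the same strand, MIR143 in an annotated exon and MIR145 in an intron. A second copy, MIR199A1, lies at chr19:10817426-10817496 in an intron of DNM2, and MIR199B lies at chr9:128244721-128244830 in an intron of DNM1, each on the opposite strand to its host. The deposited values carry no coordinates, and the submitters' processing notes name hg19.

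These locations limit what each member reports. miR-199a-5p can come from MIR199A1 or MIR199A2, and the 3p sequence can come from MIR199A1, MIR199A2 or MIR199B. Of the members tied to DNM3OS, only the arms of miR-214 have a single hairpin in the sequence table. miR-199a-3p and miR-199b-3p had 31436 and 31430 reads in replicate 1 of the RA group, 3832 and 3831 in replicate 2, and 8113 and 8114 in replicate 3. In the Control libraries the same entries had 41387 and 41365 reads in replicate 1, 84505 and 84458 in replicate 2, and 79205 and 79175 in replicate 3. They differed by at most 0.056% in any library and were read as 1 measurement that is listed 2 times.

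Depth differed between the groups and touched every member. The RA libraries held 1158116, 176590 and 298412 miRNA reads, and the Control libraries held 2190324, 4111404 and 3423545. One read stood for 5.21 CPM in RA replicate 2, so the lowest count of any member, 15 reads of miR-143-5p in that library, is 78.1 CPM. All 10 members had reads in all 6 libraries. The Wilson intervals of read shares given below cover counting error only, while the limma intervals rest on the spread among libraries. The part of depth in any difference cannot be told apart from the group.

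The members spanned a wide range of levels. By mean level over the 6 libraries, miR-199a-3p and miR-199b-3p ranked 10 and 11 of 449, miR-143-3p ranked 16 and miR-199a-5p ranked 17. miR-214-3p ranked 79, miR-145-5p 108, miR-214-5p 114, miR-199b-5p 125, miR-145-3p 136 and miR-143-5p 166. These are levels per miRNA read, and small RNA ligation can favour some sequences, so the order describes reads and not molecules. Between replicates, the SD of a member was 10.9% to 39.7% of its mean in the RA group and 7.45% to 22.5% in the Control group.

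**Figure D1:**
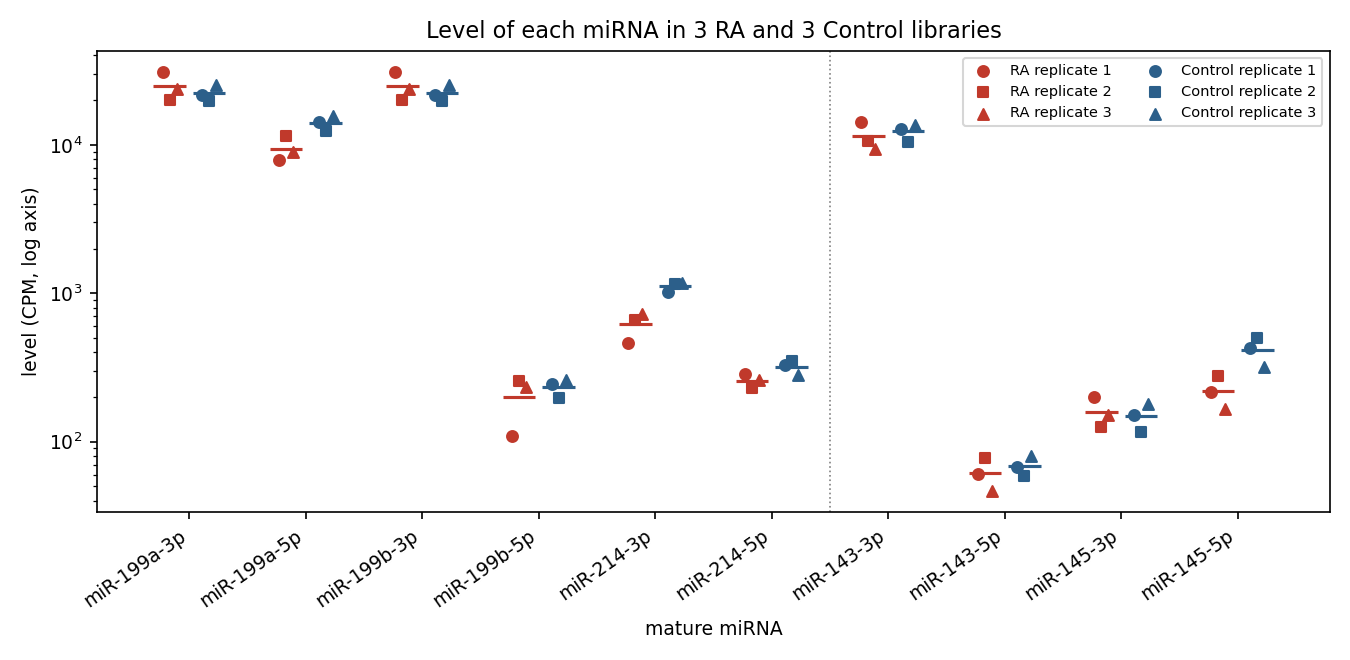
Level of each member in CPM on a log axis, in the 3 RA libraries (left of each pair) and the 3 Control libraries (right), with a line at the group mean. miR-214-3p, miR-199a-5p and miR-145-5p are the members whose RA points all lie below all Control points, and the 3p entries of miR-199a and miR-199b coincide.

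The comparison of RA with Control asked which of these miRNAs changed with treatment. hsa-miR-214-3p, the more abundant arm of its hairpin, was lower after RA. It stood at 465, 662 and 727 CPM in the RA libraries, against 1020, 1158 and 1168 CPM in the Control libraries. The RA libraries, on 471, 127 and 250 reads, were all below the lowest Control library. The means were 618 ± 136 CPM in the RA group and 1115 ± 83.1 CPM in the Control group (SD, n = 3 each). The log2 fold change was -0.87 (standard error 0.21, 95% interval -1.34 to -0.41, adjusted p = 0.024 from limma over all 449 miRNAs). Fold changes here are on the log2(CPM + 1) scale. The call ended without any 1 of the libraries other than RA replicate 1, at an adjusted p of up to 0.13, and also when each library was scaled to its total alone (adjusted p = 0.15 from limma), while the log2 fold change lay between -1.004 and -0.68 over all 13 alternatives.

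miR-145-5p, the arm known for restraining the pluripotency factors, was at 215, 276 and 166 CPM in the RA libraries, against 429, 502 and 316 CPM in the Control libraries. Its RA libraries too lay below all of the Control libraries, with 218, 53 and 57 reads behind the RA values. The log2 fold change was -0.93 (standard error 0.26, 95% interval -1.50 to -0.35), and it did not pass (adjusted p = 0.053 from limma). In edgeR's quasi-likelihood fit to the recovered reads it passed, with a log2 fold change of -0.91 and an adjusted p of 0.045. Leaving out each library in turn gave log2 fold changes between -1.11 and -0.74, none of which passed. Whether the changes of miR-214-3p and miR-145-5p differ was not tested, and their intervals overlap over most of their length.

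miR-199a-5p, which is known to repress HIF1A, was at 7867, 11455 and 8913 CPM in the RA libraries, against 14319, 12362 and 15565 CPM in the Control libraries. The RA and Control libraries did not overlap, and the gap was narrowest between RA replicate 2 and Control replicate 2. The log2 fold change was -0.59 (standard error 0.20, 95% interval -1.04 to -0.15), and it did not pass (adjusted p = 0.10 from limma, and adjusted p = 0.10 from edgeR's quasi-likelihood test).

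The 3p sequence shared by miR-199a and miR-199b, known to repress MET and MTOR, was the most abundant member. miR-199a-3p was at 31040, 19962 and 23593 CPM in the RA libraries, against 21774, 19672 and 25436 CPM in the Control libraries. The groups overlapped, and RA replicate 1 was the highest of the 6 libraries. The log2 fold change was 0.14 (95% interval -0.34 to 0.63, adjusted p = 0.74 from limma), so that a change of either sign within that interval is not distinguished here. Without RA replicate 1 its log2 fold change was -0.031.

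miR-143-3p, known to repress the kinase ERK5, was at 14164, 10621 and 9370 CPM in the RA libraries, against 12764, 10454 and 13646 CPM in the Control libraries. The groups overlapped, with the highest and the lowest values both in the RA group. The log2 fold change was -0.12 (95% interval -0.59 to 0.34, adjusted p = 0.76 from limma), and its sign turned to 0.013 when libraries were scaled to their totals and to 0.063 in DESeq2.

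The remaining members were the less abundant arms. miR-214-5p was at 285, 229 and 259 CPM in the RA libraries, against 328, 352 and 282 CPM in the Control libraries, and the highest RA value lay just above the lowest Control value. miR-199b-5p was at 109, 255 and 233 CPM in the RA libraries, against 244, 197 and 262 CPM in the Control libraries, with RA replicate 1 below the rest. miR-145-3p was at 199.5, 125 and 151 CPM in the RA libraries, against 151, 117 and 180 CPM in the Control libraries. These arms overlapped between the groups. miR-143-5p, at 46.5 to 78.1 CPM in the RA libraries and 58.7 to 80.0 CPM in the Control libraries, overlapped as well. The log2 fold changes of these members were -0.31, -0.32, 0.08 and -0.18 in the same order, and none passed (adjusted p between 0.46 and 0.88 from limma). Their 95% intervals reached from -0.78 to 0.16 for miR-214-5p and from -1.02 to 0.38 for miR-199b-5p. They reached from -0.52 to 0.69 for miR-145-3p and from -0.88 to 0.53 for miR-143-5p.

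**Figure D2:**
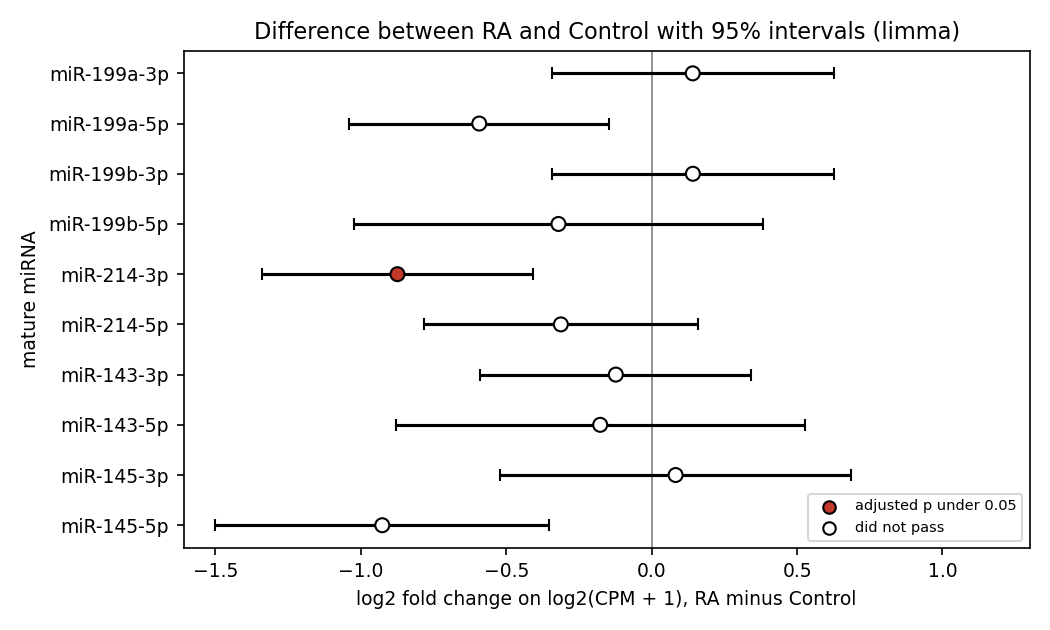
Log2 fold change on the log2(CPM + 1) scale, RA minus Control, of each member, with its 95% interval from limma (3 libraries a group). The filled point, miR-214-3p at -0.87, passed an adjusted p under 0.05, and the intervals of miR-145-5p and miR-199a-5p also lie below 0 but their adjusted p did not pass.

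In all, 1 of the 10 members was lower and 0 were higher at an adjusted p under 0.05 from limma. Over all 449 miRNAs, 4.68% were lower and 2.90% were higher by the same rule. Of the 260 averaging 10 CPM or more, 21 were lower and 9 were higher by that rule. At an unadjusted p under 0.05, 3 of the 10 members were lower and 0 were higher in limma, where 13.8% of all miRNAs and 21.5% of the 260 averaging 10 CPM or more were lower. edgeR's quasi-likelihood fit to the recovered reads called 2 of the 10 lower, miR-214-3p and miR-145-5p, and 0 higher, where it called 6.24% of all miRNAs lower. DESeq2 called miR-214-3p lower and 0 members higher, and it called 5.57% lower of the 377 miRNAs to which it gave an adjusted p. Of the 260, edgeR called 28 lower and DESeq2 called 21 lower. The RA libraries lay wholly below the Control libraries for 3 of the 10 members, against 17.1% of all miRNAs and 26.2% of the 260 miRNAs averaging 10 CPM or more, a level that all members reached. The share of members is thus near the background at their level. Their median log2 fold change was -0.24, beside -0.17 for those 260 miRNAs and 0.00 for all 449. This median and the counts of 10 members take the shared 3p sequence 2 times. With that sequence taken once, the middle member is miR-214-5p at -0.31. Set against the -0.17, miR-214-3p was at -0.71, miR-145-5p at -0.76 and miR-199a-5p at -0.43.

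**Figure D3:**
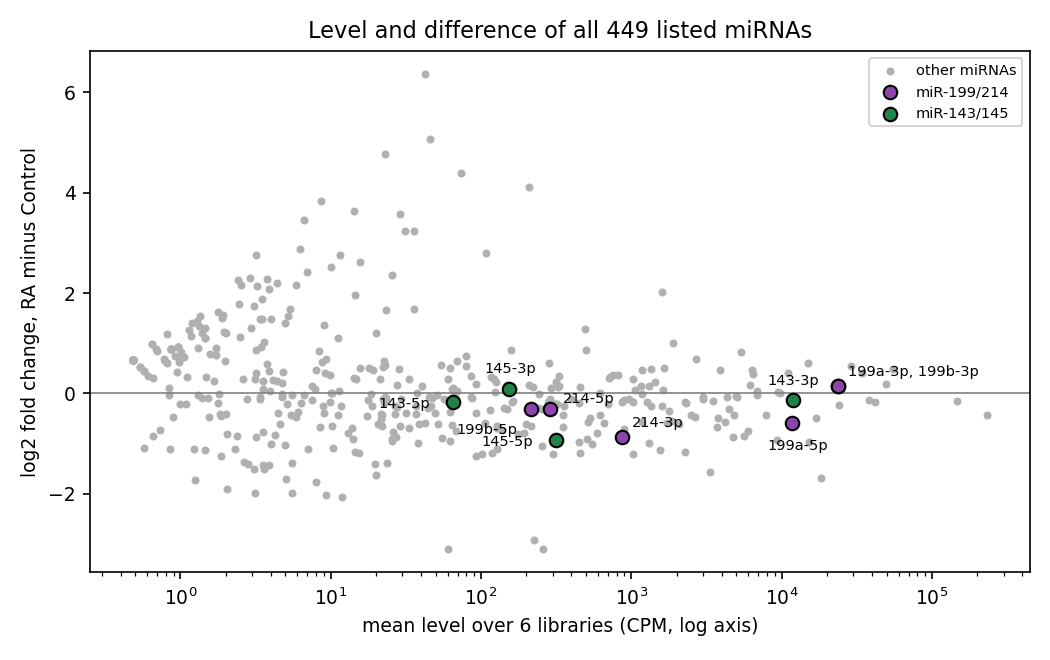
Log2 fold change, RA minus Control, against the mean level over the 6 libraries (CPM, log axis) for all 449 miRNAs, with the members of both groups coloured. The members lie among the other miRNAs of their level, between -0.93 and 0.14, with miR-145-5p and miR-214-3p lowest.

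The miR-199 and miR-214 entries were then set beside those of miR-143 and miR-145. As listed, the 6 entries of miR-199 and miR-214 summed to 70800, 52519 and 57320 CPM in the RA libraries, against 59446, 53403 and 68138 CPM in the Control libraries. The 4 entries of miR-143 and miR-145 summed to 14639, 11101 and 9733 CPM in the RA libraries, against 13412, 11131 and 14222 CPM in the Control libraries. Both sums overlapped between the groups, and both were carried by their most abundant 3p arms. With the shared 3p sequence counted once, the sum for miR-199 and miR-214 averaged 35351 ± 3867 CPM in the RA group and 38046 ± 4496 CPM in the Control group (SD, n = 3 each). It was 2.72, 2.93 and 3.46 times the sum for miR-143 and miR-145 in the RA libraries, against 2.81, 3.03 and 3.00 times in the Control libraries. This ratio, which no scaling of a library can change, overlapped between the groups and was given no test. With the miR-199b-5p entry also left out, the ratio averaged 3.02 ± 0.38 in the RA group and 2.93 ± 0.12 in the Control group (SD, n = 3 each). The arms of miR-214, which mark DNM3OS alone, summed to 750, 891 and 986 CPM in the RA libraries, against 1347, 1510 and 1450 CPM in the Control libraries. That sum did not overlap between the groups, and it rests mostly on miR-214-3p. Its ratio to the sum for miR-143 and miR-145 was 0.051, 0.080 and 0.101 in the RA libraries, against 0.100, 0.136 and 0.102 in the Control libraries. This miR-214 ratio overlapped between the groups and was given no test.

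The order of neighbouring members also differed within libraries. miR-199a-5p was below miR-143-3p in RA replicates 1 and 3, and above it in all 3 Control libraries. miR-145-5p was likewise below miR-214-5p in RA replicates 1 and 3, and above it in all 3 Control libraries. In each of these orders RA replicate 2 was like the Control libraries. In both groups the ranges of miR-199a-5p and miR-143-3p overlapped across libraries, as did those of miR-145-5p and miR-214-5p. The order of these neighbours within libraries was given no test. The ranges of miR-214-5p and miR-199b-5p, and those of miR-199b-5p and miR-145-3p, overlapped in the RA group and not in the Control group. The other neighbours in the order were apart in both groups, apart from the shared 3p entries. miR-143-5p was below all other members in all 6 libraries.

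The arms of one hairpin name were compared within each library, which does not depend on scaling. The 5p arm made up 20.2%, 36.5% and 27.4% of miR-199a reads in the RA libraries, against 39.7%, 38.6% and 38.0% in the Control libraries. The 95% Wilson intervals were 19.8 to 20.6%, 35.3 to 37.7% and 26.6 to 28.3% in the RA group, against 39.3 to 40.0%, 38.3 to 38.8% and 37.7 to 38.2% in the Control group. The Control libraries were close together and the RA libraries were spread out below them, and the 3p reads in this share include any that came from MIR199B.

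For miR-214 the shift ran the other way, toward the less abundant arm. Its 5p arm made up 38.0%, 25.7% and 26.3% of reads in the RA libraries, against 24.3%, 23.3% and 19.4% in the Control libraries. The 95% Wilson intervals were 34.6 to 41.5%, 19.8 to 32.8% and 21.9 to 31.2% in the RA group, against 22.7 to 26.0%, 22.3 to 24.3% and 18.3 to 20.6% in the Control group. All RA libraries lay above all Control libraries, but the intervals of RA replicates 2 and 3 overlap that of Control replicate 1, so only RA replicate 1 stands clear of counting error.

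For miR-145 the 5p arm made up 51.9%, 68.8% and 52.3% of reads in the RA libraries, against 74.0%, 81.1% and 63.8% in the Control libraries. The 95% Wilson intervals were 47.1 to 56.6%, 57.8 to 78.1% and 43.0 to 61.4% in the RA group, against 71.3 to 76.5%, 79.6 to 82.5% and 61.3 to 66.1% in the Control group. RA replicate 2 lay between the Control libraries, so the groups overlapped. For miR-143 the 5p arm was a small part of the reads in all 6 libraries, at 0.42% to 0.73% in the RA group and 0.53% to 0.58% in the Control group.

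On the log2 scale, the 5p over 3p ratio (1 CPM added to each arm) differed by -1.01 for miR-145, -0.73 for miR-199a, -0.46 for miR-199b, -0.05 for miR-143 and 0.56 for miR-214, RA minus Control. Among the 61 hairpin names with both arms at 10 CPM or more, the RA libraries lay wholly below the Control libraries in 19.7%, miR-199a among them, and wholly above in 8.20%, miR-214 among them. The median size of the difference over the 61 was 0.46, and miR-145, miR-199a and miR-214 ranked 6, 17 and 25 by size. The 3p reads of miR-199b include any that came from MIR199A1 or MIR199A2. Its log2 ratios overlapped between the groups, with RA replicate 1, at -8.15, below all other libraries. These arm differences were given no test.

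**Figure D4:**
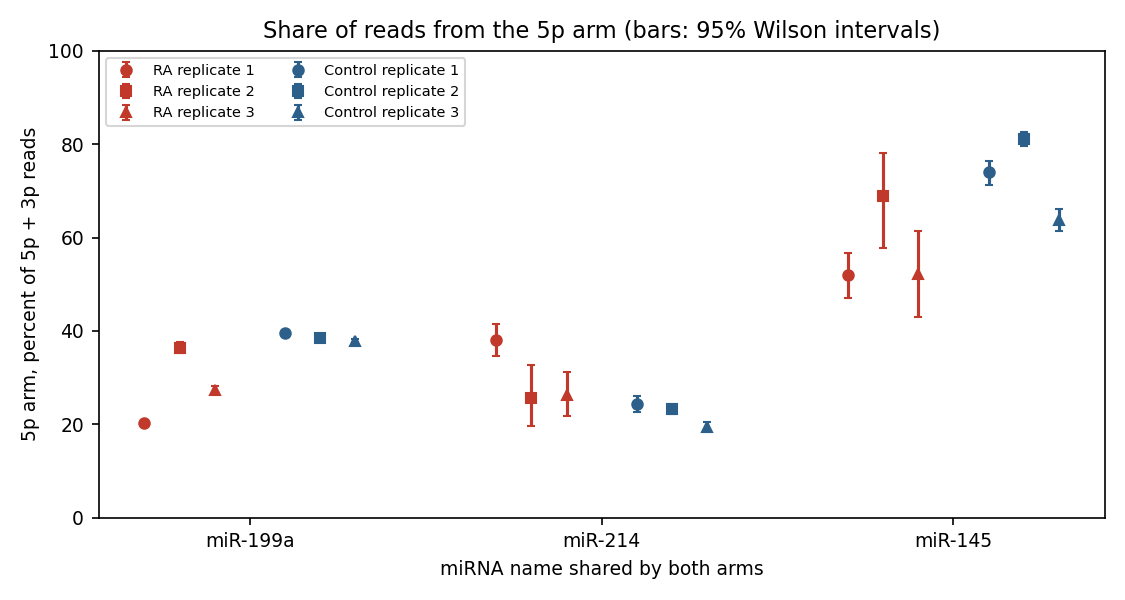
Share of the 5p arm in the reads of both arms of miR-199a, miR-214 and miR-145, for each RA library (left) and Control library (right), with 95% Wilson intervals for counting error. The miR-199a share was 20.2% to 36.5% in the RA libraries and 38.0% to 39.7% in the Control libraries, while the miR-145 shares overlapped.

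The miRNAs with the most similar pattern were found by the root mean square distance between log2(CPM + 1) values over the 6 libraries, each centred on its own mean, among 250 other miRNAs of at least 10 CPM. The nearest to miR-199a-3p were miR-99a-5p at a distance of 0.11, miR-708-3p at 0.13 and miR-30a-3p at 0.13, where the median distance was 0.48. The nearest to miR-143-3p were miR-148b-3p, miR-532-5p and miR-142-5p, at distances of 0.055, 0.057 and 0.059, where the median was 0.44. These profiles share the same 6 libraries and their scaling.

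Markers of other cells were read from lists. The 8 miRNAs listed as typical of MDA-MB-231, led by miR-21-5p, were all detected and summed to 217472 to 241851 CPM in the RA libraries, against 258809 to 323764 CPM in the Control libraries. Those sums did not overlap between the groups, and miR-21-5p made up most of each. None of the 8 passed in limma, edgeR or DESeq2. An unadjusted p under 0.05 was given for 0 of them by limma, for 1 by edgeR and for 1 by DESeq2. The epithelial list, led by miR-200b-3p, had 8 of 12 measured, summing to 189 to 288 CPM in the RA libraries and 205 to 288 CPM in the Control libraries. The imprinted 14q32 cluster, which is also active in mesenchymal cells, had 24 of 60 measured. They summed to 28.6, 20.8 and 381 CPM in RA replicates 1, 2 and 3, and to 1.61 to 9.78 CPM in the Control libraries. The high end was thus RA replicate 3 alone, where 1 read stood for 2.91 CPM. Of that cluster 0 passed in limma (2 had an unadjusted p under 0.05), 10 were higher in edgeR and 9 in DESeq2, which gave no adjusted p for another 11. Over all 449 miRNAs, edgeR called 38 higher and DESeq2 called 45.

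Blood cell miRNAs, led by miR-142-5p, summed to 1683 to 2686 CPM in the RA libraries and 1936 to 2104 CPM in the Control libraries. Of the 9, 1 was higher in limma, 3 in edgeR and 2 in DESeq2. The 1 in limma was miR-451a, a red blood cell miRNA named after its values were seen, at 824, 26.0 and 355 CPM in the RA libraries against 5.26, 33.8 and 6.10 CPM in the Control libraries. Its call ended without RA replicate 1 or 3 or Control replicate 1 or 3 (highest adjusted p = 0.44, from limma). Endothelial miR-126-3p and miR-126-5p summed to 0 to 412 CPM in the RA libraries and 3.16 to 8.99 CPM in the Control libraries. Liver and muscle miRNAs, 5 of 9 measured, summed to 669 to 10093 CPM in the RA libraries and 619 to 950 CPM in the Control libraries. In the epithelial, endothelial and liver and muscle lists 0 passed in limma and 0 had an unadjusted p under 0.05, while edgeR called 1, 2 and 1 higher and DESeq2 called 0, 1 and 0. The high end of the last list was miR-122-5p, at 9493 CPM in RA replicate 1, the library in which miR-199a-3p was highest and miR-214-3p, miR-199a-5p and miR-199b-5p were lowest. The part of these markers in the members' values was not tested. miR-451a and miR-126-3p were high in RA replicates 1 and 3, and the log2 fold change of miR-214-3p was -0.68 without RA replicate 1 (adjusted p = 0.025 from limma) and -1.004 without RA replicate 3 (adjusted p = 0.094 from limma, which no longer passed).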

How the data were processed

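The deposited values are one signal per mature miRNA and library in CPM, which the authors had scaled to an effective library size, and a log2 value per group that the authors computed and that was not used here. The build in the submitters' processing notes is hg19, with aligner and counter not given in the sources used here. Dividing each of the 2694 values by the lowest nonzero value of its library gave whole reads for 100% of them (tolerance 0.01 reads). Groups were compared over all 449 miRNAs with limma 3.58.1 in R 4.3.3, on log2(CPM + 1) with a trended variance and Benjamini-Hochberg adjustment, which weighted libraries of unequal depth alike. Alternatives were edgeR 4.0.16 with TMM factors (38 higher and 28 lower) and DESeq2 1.42.0 on recovered reads, scaling to library totals, pseudocounts of 0.5 and 5, a minimum mean of 10 CPM, a block on replicate number, a rule of fold and unadjusted p, and leaving out each library. All members were named, along with the 2 most abundant miRNAs at most of each other list. Also named were the 3 profiles nearest to the most abundant member of each group. Outside this rule were miR-6088, for its seed, and miR-451a, named after its values were seen. The members and lists were chosen with earlier results of these data known.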

Additional observations from a re-analysis of the deposited data

How the results depend on the processing

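Counts over all miRNAs depended on the method. limma called 13 higher and 21 lower, edgeR's quasi-likelihood test 38 and 28, DESeq2 45 and 21, and limma after scaling to library totals 17 and 11. The median over all miRNAs became 0.15, 0.32 and 0.13 on the log2 scale in these 3 alternatives, against 0.00. There were 8 higher with a minimum mean of 10 CPM and 27 higher by a fold over 2 and an unadjusted p under 0.05. Leaving out 1 library gave 6 to 21 higher and 4 to 28 lower. Past 1.5 times from the count, there were 21 higher without RA replicate 1 and 6 or 7 without RA replicate 3 or any Control replicate, and 10, 4, 13 and 9 lower without RA replicate 3 and Control replicates 1, 2 and 3. The cause was not tested.

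miR-214-3p was below 0 in all 13 alternatives and was called in 7, and its log2 fold change was -0.74 after scaling to library totals. miR-145-5p was called in 3, by edgeR, with a minimum mean of 10 CPM (adjusted p = 0.043 from limma) and with the replicate block. The sign of several members that did not pass depended on single libraries, with log2 fold changes of -0.031 to 0.29 for miR-199a-3p, -0.030 to 0.29 for miR-199b-3p, -0.55 to 0.066 for miR-199b-5p, -0.29 to 0.0064 for miR-143-3p, -0.36 to 0.0067 for miR-143-5p and -0.10 to 0.24 for miR-145-3p when 1 library was left out. miR-143-3p also turned to 0.013 after scaling to library totals and to 0.063 in DESeq2. The log2 differences, RA minus Control, of both sums and of their ratio moved by less than 1 SD under their alternatives, although leaving out the repeated 3p entry lowers the miR-199 and miR-214 sum itself. Depth limits the rarer arms most, down to 15 reads of miR-143-5p in RA replicate 2.

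A block on the replicate number gave 24 higher and 31 lower miRNAs. Among the lower were miR-145-5p (adjusted p = 0.0072 from limma) and miR-214-3p (adjusted p = 0.0026 from limma). The deviations of same-numbered libraries from their group means had correlations across 260 miRNAs of 0.12, -0.19 and 0.13. RA replicates 1 and 3 were closest to the Control library of their own number, and RA replicate 2 to Control replicate 3. These weak correlations cannot decide whether the numbers pair the libraries.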
